A study of Homo sapiens with 6 samples.

Results

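Proteoglycans are proteins that carry long sulfated sugar chains, the glycosaminoglycans, and the genes described here build those chains, carry them at the cell surface or supply their precursors. They were given as a list of 48 gene symbols of the pathway, of which 45 had a row among the 12703 genes of the count table. XYLT1, HS3ST3A1 and SULF1 had no row and were not analysed here. PC3 cells, a human line established from a bone metastasis of prostate cancer, were stably transduced with lentiviral particles carrying the open reading frame of GCNT1, the glycosyltransferase that forms core 2 O-glycans, or with negative-control particles. RNA was sequenced from 3 GCNT1 overexpressing and 3 control lines, and whether the lines of a group came from separate transductions, and which promoter drove GCNT1, is not given in the sources used here. The p-values therefore measure the spread between these samples, which may be technical. The comparison addresses how the expression of the glycosaminoglycan machinery differed between cells with and without GCNT1 overexpression, and with 1 vector in each group the vector and the group cannot be told apart.

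Glycosaminoglycan chains of the heparan sulfate (HS) and chondroitin sulfate (CS) types start from a shared linker that begins with xylose on a serine of the core protein. The EXT enzymes then polymerise HS and the CHSY and CHPF proteins CS, and sulfotransferases decorate the chain with sulfate taken from the donor PAPS. Dermatan sulfate is an epimerised form of CS, keratan sulfate (KS) is built on other glycans, and hyaluronan is made without a core protein or sulfate. The pattern of sulfate decides which growth factors and matrix proteins a chain binds, and syndecans and glypicans are the main HS carriers of the cell surface.

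The libraries held 11392213 to 13825704 counts, and the detection floor of 3 counts corresponds to 0.217 to 0.263 CPM (counts scaled to the size of the library), a limit that covers counting error only. GCNT1 itself had 9, 13 and 8 reads in controls and 13, 16 and 35 reads with GCNT1 overexpression (log2 fold change 0.98 ± 0.37 (SE), edgeR's Benjamini-Hochberg adjusted p = 0.0362). In CPM every GCNT1 overexpressing library was above every control, although 2 of the 3 were close to the highest control, and the group names used here are those of the labels. The study also examined GCNT1 in its overexpressing PC3 cells by immunocytochemistry, ELISA and real-time PCR, whose values were not used here. Only with the GCNT1 overexpressing libraries did GCNT1 reach 1 CPM in 3 libraries, the level near which the genes of the table had been filtered. All 5 epithelial markers (KRT8, KRT18, KRT19, EPCAM and CDH1) were counted in every library, with 2582 to 2725 counts for KRT8 and 51 to 86 for EPCAM. CDH1 fell from 34 to 56 counts in controls to 14 to 15 with GCNT1 overexpression (log2 fold change -1.71 ± 0.24 (SE), edgeR's Benjamini-Hochberg adjusted p = 4.74e-05), and KRT19 fell as well (log2 fold change -0.68 ± 0.06 (SE), edgeR's Benjamini-Hochberg adjusted p = 4.27e-07). The other 3 changed little, with log2 fold changes of -0.18 for KRT18, -0.14 for KRT8 and 0.09 for EPCAM. KRT8 and EPCAM did not pass an adjusted p value of 0.05. Of the markers of the prostate luminal lineage KLK2, KLK3 and FOLH1 had no row, and TMPRSS2 fell from 45 to 61 counts in controls to 19 to 27 (log2 fold change -1.26 ± 0.19 (SE), edgeR's Benjamini-Hochberg adjusted p = 9.25e-05). Of 11 markers of other cell types PTPRC, CD3E, CD14, VWF, CDH5, COL1A2, PDGFRA and PDGFRB had no row, while CD68, PECAM1 and COL1A1 were counted in all libraries. PECAM1 went from 18 to 24 counts in controls to 54 to 60 with GCNT1 overexpression, COL1A1 fell (log2 fold change -0.77 ± 0.10 (SE), edgeR's Benjamini-Hochberg adjusted p = 2.32e-05), and their part in the results was not tested.

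Counts were scaled with TMM factors and the groups compared with edgeR's quasi-likelihood test over all 12703 genes, with Benjamini-Hochberg adjustment. A gene was called at an adjusted p value under 0.05 together with an absolute log2 fold change of at least 0.58. Of the 45 genes, 12 were called, 4 higher and 8 lower in GCNT1 overexpressing cells, which is 26.7% against 19.3% of all genes (8.28% higher and 11.1% lower). SULF2, CHST2, HAS2, HS6ST2, HS3ST1, GPC1, PAPSS2 and SDC3 were lower, and GPC4, SDC2, CHPF2 and HS6ST1 were higher. A further 17 genes passed the adjusted p value alone, 7 higher and 10 lower, which makes 29 of 45 (64.4%) against 57.6% of all genes (28.3% higher and 29.3% lower). The libraries of the groups did not overlap in 33 genes (73.3%), 13 with all GCNT1 overexpressing libraries higher and 20 with all lower, against 62.5% of all genes (30.9% higher and 31.6% lower). The median log2 fold change was -0.06 over the 45 genes and 0.00 over all genes. The genes of the table had passed a filter near 1 CPM in 3 libraries, and HS6ST2 and HS3ST1 passed it through the control libraries.

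**Figure D1:**
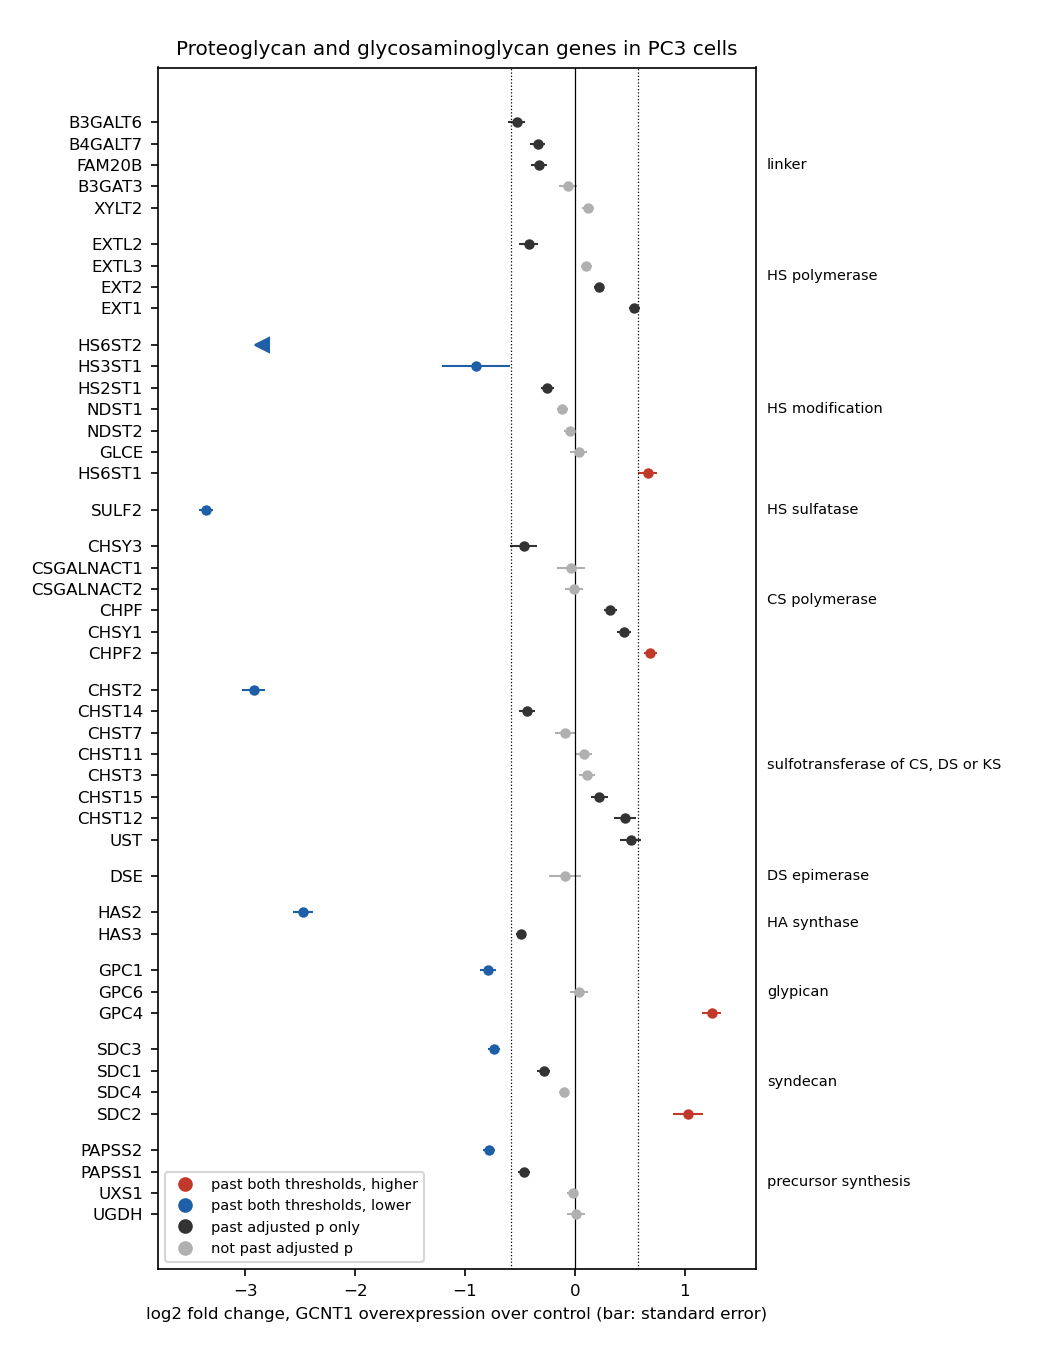
Log2 fold change of the 45 genes, GCNT1 overexpression over control, by role, with bars for the standard error and dotted lines at the threshold of 0.58. SULF2, CHST2 and HAS2 lie below -2, the arrow places HS6ST2 at its bound of at least 7.18-fold lower, and the linker and EXT genes stay between the dotted lines.

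Promoter sequence is shown for SULF2, CHST2 and HS6ST2, 3 of the genes with the largest falls, and for GPC4, the gene with the largest rise among the 45. RefSeq (GRCh38.p14, the same build as hg38) gave a start site for 39 of the 45 genes. Each line holds the 250 bases before a start, 5′ to 3′ on the strand of the gene, with the motif GGGCGG or its reverse complement CCGCCC, the GC box, in capitals. SULF2 has 4 starts in RefSeq, and the one nearest to the canonical GENCODE transcript is shown, since gene counts do not tell which start was used.
SULF2, chr20:47785482-47785731, minus strand: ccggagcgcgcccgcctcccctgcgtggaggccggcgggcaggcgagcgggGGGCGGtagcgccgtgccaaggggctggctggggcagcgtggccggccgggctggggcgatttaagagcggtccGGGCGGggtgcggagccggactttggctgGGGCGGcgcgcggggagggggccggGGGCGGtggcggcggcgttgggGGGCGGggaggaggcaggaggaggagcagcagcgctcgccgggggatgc
CHST2, chr3:143119521-143119770, plus strand: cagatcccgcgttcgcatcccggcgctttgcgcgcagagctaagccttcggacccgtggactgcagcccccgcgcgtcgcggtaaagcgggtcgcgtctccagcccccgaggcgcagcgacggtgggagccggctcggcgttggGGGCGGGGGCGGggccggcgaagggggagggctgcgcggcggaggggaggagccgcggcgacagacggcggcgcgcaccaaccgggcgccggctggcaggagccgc
HS6ST2, chrX:132961371-132961620, minus strand: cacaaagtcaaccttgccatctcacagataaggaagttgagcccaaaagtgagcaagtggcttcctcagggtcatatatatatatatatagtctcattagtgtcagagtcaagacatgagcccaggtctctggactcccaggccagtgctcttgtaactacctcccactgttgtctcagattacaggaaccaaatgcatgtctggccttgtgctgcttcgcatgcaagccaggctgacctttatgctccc
GPC4, chrX:133415490-133415739, minus strand: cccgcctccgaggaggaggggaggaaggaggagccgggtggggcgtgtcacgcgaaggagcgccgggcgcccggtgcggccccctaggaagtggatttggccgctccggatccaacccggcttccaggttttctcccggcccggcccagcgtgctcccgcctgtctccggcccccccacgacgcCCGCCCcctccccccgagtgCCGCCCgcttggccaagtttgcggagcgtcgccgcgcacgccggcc

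The windows of SULF2, CHST2 and GPC4 were rich in G and C, at 81.2%, 78.0% and 76.0%, and held 5, 2 and 2 GC boxes counted on both strands. That of HS6ST2 held none and was 48.0% G and C, with a run of alternating T and A. A GC box was found in 36 of the 39 windows of the list (92.3%) and in 42.6% of all 35116 RefSeq windows. Windows with and without a GC box occur among the genes that fell. The E-box CAGGTG, searched with its complement CACCTG, was in none of the windows shown, in 3 of the 39 and in 17.5% of all windows. These shares do not compare like with like. Genes of the list with several starts entered through a chosen start only, while all windows include every start. The median G and C content was 73.2% in the list and 58% over all windows. Whether either motif differed in frequency at equal G and C content, or against other expressed genes, was not tested.

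Among those of the 45 genes that were counted in every library, the largest change was in SULF2 (Entrez identifier 55959, chromosome 20 from 47657406 to 47786627 of hg38), an extracellular sulfatase that removes sulfate from the 6-O position of glucosamine in finished HS chains. SULF2 had 5363, 5368 and 5360 reads in controls and 480, 639 and 560 reads with GCNT1 overexpression. All GCNT1 overexpressing libraries lay far below all controls, and within each group the libraries differed little. Its level fell from 437 ± 14.5 CPM (SD, n = 3) to 42.6 ± 3.54 CPM (SD, n = 3), 10.3-fold (log2 fold change -3.36 ± 0.06 (SE), edgeR's Benjamini-Hochberg adjusted p = 1.85e-13). Per length of transcript SULF2 was second only to HAS3 among the 45 genes in controls, with 115 ± 3.81 RPKM (SD, n = 3), and it was in place 21 with GCNT1 overexpression. With length over all exons in place of the canonical transcript, SULF2 was at 62.6 RPKM in controls, below SDC1 at 78.5 RPKM. In bulk RNA, fewer cells with SULF2 RNA and less SULF2 RNA per cell cannot be told apart. The gene NCOA3 and 1 non-coding gene lie on the opposite strand and share 3.54% and 3.04% of its exonic bases.

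The enzymes that put sulfate on the 6-O position moved in both directions. HS6ST1 (Entrez identifier 9394, chromosome 2 from 128265480 to 128318868) had 209, 242 and 218 reads in controls and 333, 370 and 431 reads with GCNT1 overexpression. The groups did not overlap, and HS6ST1 rose 1.58-fold, from 18.2 ± 1.43 CPM (SD, n = 3) to 28.8 ± 1.81 CPM (SD, n = 3) (log2 fold change 0.66 ± 0.09 (SE), edgeR's Benjamini-Hochberg adjusted p = 2.17e-05). Relative to its 50 nearest genes, whose median was 0.10, HS6ST1 was below the fold threshold (0.56). HS6ST2 (Entrez identifier 90161, chromosome X from 132626015 to 132961370) had 25, 17 and 19 reads in controls and 0, 0 and 0 reads with GCNT1 overexpression. It was thus a weak transcript in controls and was not detected with GCNT1 overexpression, at least 7.18-fold lower when the overexpressing group is set to the floor of 3 counts per library (adjusted p = 6.92e-06 from edgeR after Benjamini-Hochberg adjustment). HS6ST3, the other gene of the family and not one of the 45, had 25, 18 and 21 reads in controls and 2, 4 and 4 reads with GCNT1 overexpression (log2 fold change -2.73 ± 0.35 (SE), edgeR's Benjamini-Hochberg adjusted p = 1.98e-05). In RPKM, the CPM per kilobase of the canonical transcript, HS6ST1 made up 84.7, 90.3 and 88.0% in the control libraries and 99.7, 99.5 and 99.5% in the GCNT1 overexpressing libraries of the sum of the 3 genes. The sum itself was 4.90 ± 0.235 RPKM (SD, n = 3) in controls and 6.84 ± 0.427 RPKM (SD, n = 3) with GCNT1 overexpression, so HS6ST1 was the main source in both groups and nearly the only one with GCNT1 overexpression. HS6ST2 and HS6ST3 passed the filter of the table through the control libraries alone, which favours a fall over a rise. Their adjusted p values and these shares carry that limit.

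Of the other 5 enzymes that modify HS, HS3ST1 was called. HS3ST1 (Entrez identifier 9957, chromosome 4 from 11393150 to 11434327), which makes the antithrombin-binding 3-O-sulfated site, had 14, 16 and 21 reads in controls and 11, 10 and 8 reads with GCNT1 overexpression. The groups did not overlap, but the counts were low, and the call (log2 fold change -0.90 ± 0.31 (SE), edgeR's Benjamini-Hochberg adjusted p = 0.0243) was lost with DESeq2 (adjusted p = 0.110 after Benjamini-Hochberg adjustment). It was also lost in edgeR without control replicate 3, GCNT1 overexpression replicate 2 or GCNT1 overexpression replicate 3 (Benjamini-Hochberg adjusted p = 0.103, 0.0587 and 0.0961). HS3ST5, another 3-O-sulfotransferase and not one of the 45, had 130, 124 and 118 reads in controls and 22, 25 and 28 reads with GCNT1 overexpression (log2 fold change -2.40 ± 0.14 (SE), edgeR's Benjamini-Hochberg adjusted p = 1.26e-08). The groups were far apart, and the summed level of the 2 genes was 2.80 ± 0.0422 RPKM (SD, n = 3) in controls and 0.596 ± 0.0262 RPKM (SD, n = 3) with GCNT1 overexpression, most of it from HS3ST5 in both groups. HS2ST1, the 2-O-sulfotransferase, had 58.4, 56.1 and 54.3 CPM in the control libraries and 46.8, 48.3 and 46.8 CPM in the GCNT1 overexpressing libraries and fell by less than the fold threshold (log2 fold change -0.25). The N-deacetylase N-sulfotransferases, which begin the sulfation of HS, did not pass the test (log2 fold change -0.11 for NDST1 and -0.04 for NDST2, standard errors 0.05 and 0.05), nor did the epimerase GLCE (0.04, standard error 0.08). NDST2 shares 82.9% of its exonic bases with a longer gene of the same strand, so its count is uncertain. NDST1 was at 19.6 ± 0.211 RPKM (SD, n = 3) and NDST2 at 23.8 ± 0.458 RPKM (SD, n = 3) in controls.

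**Figure D2:**
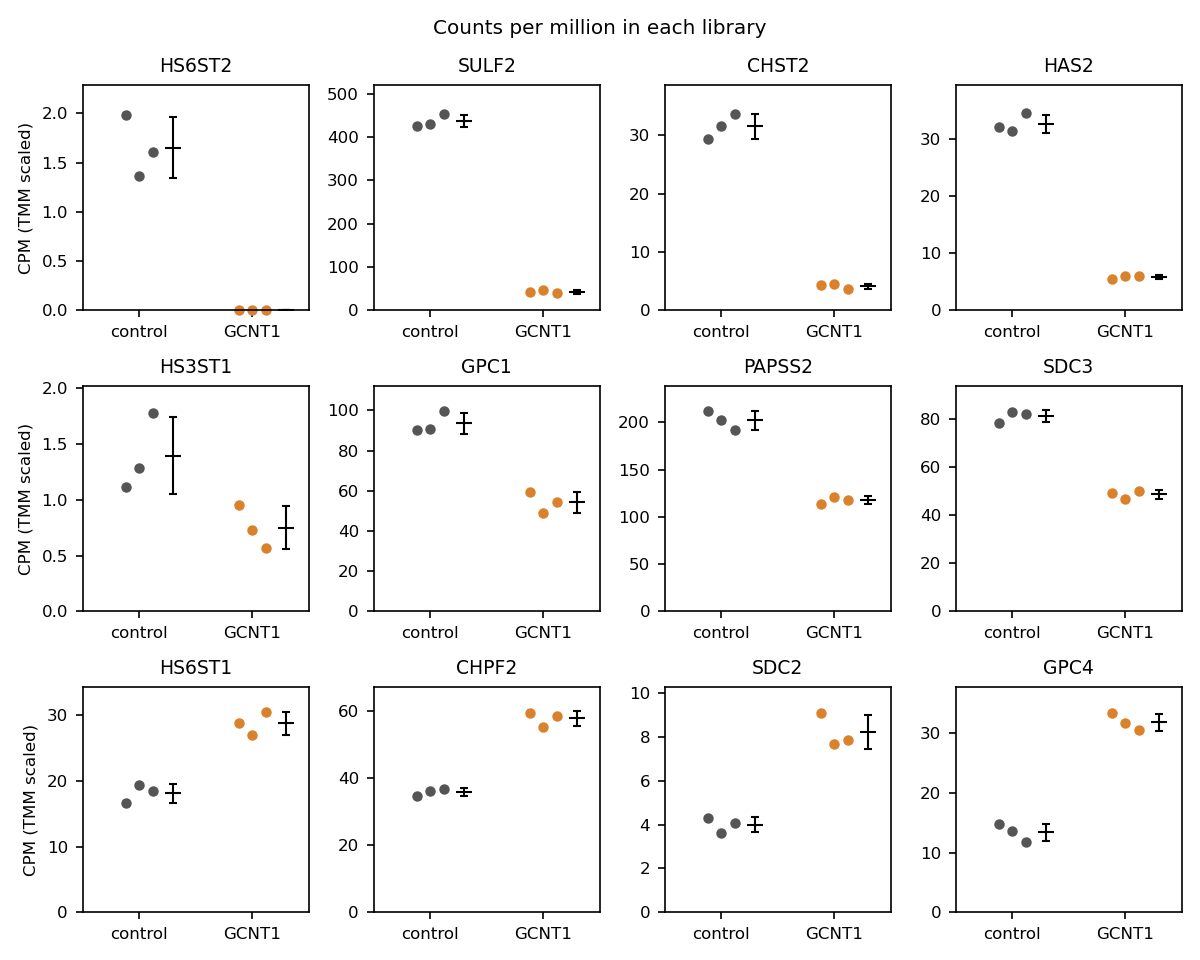
CPM of the 12 called genes in each library, with TMM scaling, a linear axis from 0, 3 points per group, and the mean with its SD beside them. In every panel the control and GCNT1 points are apart, widely for SULF2, CHST2 and HAS2 and narrowly for HS3ST1, with 0 counts for HS6ST2 in the GCNT1 overexpressing libraries.

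None of the 4 genes that begin and extend HS chains was called, against 19.3% of all genes. All 4 were without overlap between groups, against 62.5% of all genes. EXT1 and EXT2 encode the 2 subunits of the HS polymerase, and both rose by less than the fold threshold. EXT1 had 127, 141 and 133 CPM in the control libraries and 199, 193 and 192 CPM in the GCNT1 overexpressing libraries (log2 fold change 0.54). It was past both thresholds with library size in place of TMM (0.60), without control replicate 2 (0.58) and relative to its 50 nearest genes (0.62). For EXT2 the levels were 152, 150.3 and 156 CPM in the control libraries and 182, 179 and 174 CPM in the GCNT1 overexpressing libraries (log2 fold change 0.22). Neither gene overlapped between groups. EXTL2, which caps a phosphorylated linker and ends it early, went the other way. It had 27.0, 24.8 and 21.9 CPM in the control libraries and 18.8, 18.0 and 18.4 CPM in the GCNT1 overexpressing libraries (log2 fold change -0.42), again without overlap between groups. EXTL3, which adds the first glucosamine of HS, did not pass the test (log2 fold change 0.10 ± 0.05, SE). In the summed RPKM of the 4 genes EXT1 went from 30.8% ± 1.51 (SD, n = 3) to 38.5% ± 0.0529 (SD, n = 3), and EXTL2 from 16.5% ± 1.66 (SD, n = 3) to 10.6% ± 0.158 (SD, n = 3).

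Of the 5 linker enzymes with a row, 3 fell by less than the fold threshold and 2 did not pass the test. B3GALT6, which adds the second galactose of the linker, had 36.7, 40.2 and 39.0 CPM in the control libraries and 29.1, 25.3 and 26.0 CPM in the GCNT1 overexpressing libraries (log2 fold change -0.53). The first galactose is added by B4GALT7, which had 33.1, 30.5 and 31.5 CPM in the control libraries and 26.0, 24.4 and 24.8 CPM in the GCNT1 overexpressing libraries (log2 fold change -0.34). The xylose kinase FAM20B had 46.1, 50.8 and 47.6 CPM in the control libraries and 35.5, 41.6 and 38.0 CPM in the GCNT1 overexpressing libraries (log2 fold change -0.33). Without GCNT1 overexpression replicate 1 B3GALT6 was past both thresholds (-0.59). In each of these 3 genes every GCNT1 overexpressing library was below every control, and in XYLT2 every one was above, while 62.5% of all genes did not overlap and 57.6% passed the adjusted p value. XYLT2, which attaches the xylose, and B3GAT3, which adds the closing glucuronic acid, had log2 fold changes of 0.12 and -0.06 with standard errors of 0.05 and 0.08. The 50 analysed genes nearest to B3GALT6 and to B4GALT7 both shifted by a median of -0.32 on the log2 scale, close to the value of B4GALT7 itself.

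Of the 6 genes that begin or extend CS chains, 1 was called (16.7%, against 19.3% of all genes). The libraries of the groups did not overlap in 4 of the 6 (66.7%, against 62.5% of all genes). CHPF2 (Entrez identifier 54480, chromosome 7 from 151232483 to 151238822), a polymerising factor, had 435, 449 and 435 reads in controls and 686, 759 and 826 reads with GCNT1 overexpression. It rose 1.61-fold without overlap, from 35.8 ± 1.14 CPM (SD, n = 3) to 57.7 ± 2.14 CPM (SD, n = 3) (log2 fold change 0.69 ± 0.06 (SE), edgeR's Benjamini-Hochberg adjusted p = 8.91e-07), and SMARCD3 on the opposite strand shares 20.3% of its exonic bases. Its 50 nearest genes had a median of 0.22, and relative to them CHPF2 was below the fold threshold (0.46). Its partners CHSY1 and CHPF rose by less than the fold threshold. CHSY1 had 61.7, 67.1 and 60.6 CPM in the control libraries and 81.2, 88.3 and 89.2 CPM in the GCNT1 overexpressing libraries (log2 fold change 0.45). The 50 nearest genes of CHSY1 had a median of 0.30, and relative to them its value was 0.15. For CHPF the levels were 134, 136 and 148 CPM in the control libraries and 189, 166 and 169 CPM in the GCNT1 overexpressing libraries (log2 fold change 0.32). In both genes every GCNT1 overexpressing library was above every control. CHSY3, the weakest of the 4, fell from 7.53 ± 0.373 CPM (SD, n = 3) to 5.47 ± 0.311 CPM (SD, n = 3) (log2 fold change -0.47), with 7.79, 7.71 and 7.11 CPM in the control libraries and 5.79, 5.17 and 5.46 CPM in the GCNT1 overexpressing libraries. The summed level of the 4 genes was 70.6 ± 2.33 RPKM (SD, n = 3) in controls and 92.1 ± 3.83 RPKM (SD, n = 3) with GCNT1 overexpression, without overlap between the groups. CSGALNACT1 and CSGALNACT2, which add the first N-acetylgalactosamine of CS, did not pass the test (log2 fold changes -0.04 and -0.01, standard errors 0.13 and 0.08).

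Among the sulfotransferases of CS, dermatan sulfate and KS, CHST2 stood out. CHST2 (Entrez identifier 9435, chromosome 3 from 143119771 to 143124014), which sulfates N-acetylglucosamine in KS and in selectin ligands, had 369, 394 and 397 reads in controls and 50, 61 and 52 reads with GCNT1 overexpression. Every GCNT1 overexpressing library was far below the controls. The level fell from 31.5 ± 2.13 CPM (SD, n = 3) to 4.15 ± 0.406 CPM (SD, n = 3), 7.60-fold (log2 fold change -2.93 ± 0.11 (SE), edgeR's Benjamini-Hochberg adjusted p = 1.45e-10). The 4-O-sulfotransferase of dermatan sulfate, CHST14, fell by less than the fold threshold. It had 54.7, 58.9 and 65.8 CPM in the control libraries and 44.4, 46.6 and 41.5 CPM in the GCNT1 overexpressing libraries (log2 fold change -0.44). CHST12, which sulfates CS at the 4-O position, had 15.4, 13.5 and 15.1 CPM in the control libraries and 22.4, 18.3 and 19.9 CPM in the GCNT1 overexpressing libraries (log2 fold change 0.46), and its 50 nearest genes had a median of 0.42. A second sulfate is added to such residues by CHST15, and CHST15 had 29.6, 32.4 and 32.1 CPM in the control libraries and 33.3, 36.5 and 39.7 CPM in the GCNT1 overexpressing libraries (log2 fold change 0.22, adjusted p = 0.0273 from edgeR after Benjamini-Hochberg adjustment, 0.00412 to 0.152 over the alternatives). The 2-O-sulfotransferase of uronic acid, UST, had 11.0, 11.5 and 11.3 CPM in the control libraries and 16.8, 14.9 and 16.4 CPM in the GCNT1 overexpressing libraries (log2 fold change 0.51). CHST12, CHST15 and UST thus rose while CHST14 fell, all without overlap between groups. With CHST2, 5 of the 8 sulfotransferases (62.5%) did not overlap, the same share as among all genes (62.5%). CHST3, CHST7, CHST11 and the dermatan sulfate epimerase DSE did not pass the test, with log2 fold changes between -0.09 and 0.11 and standard errors up to 0.15.

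Both hyaluronan synthases with a row fell, by very different amounts. HAS2 (Entrez identifier 3037, chromosome 8 from 121612116 to 121641440) had 403, 391 and 407 reads in controls and 63, 82 and 86 reads with GCNT1 overexpression. The GCNT1 overexpressing libraries were all far below the controls, and HAS2 fell 5.56-fold, from 32.6 ± 1.60 CPM (SD, n = 3) to 5.84 ± 0.346 CPM (SD, n = 3) (log2 fold change -2.47 ± 0.09 (SE), edgeR's Benjamini-Hochberg adjusted p = 1.72e-10). An antisense gene shares 5.92% of its exonic bases. HAS3 was by far the more abundant synthase and the highest of all 45 genes per length, with 307 ± 5.50 RPKM (SD, n = 3) in controls. It had 1283, 1313 and 1268 CPM in the control libraries and 875, 934 and 946 CPM in the GCNT1 overexpressing libraries, a fall of less than the fold threshold without overlap between groups (log2 fold change -0.49 ± 0.04 (SE), edgeR's Benjamini-Hochberg adjusted p = 7.58e-07). Its 50 nearest genes had a median of 0.25, in the opposite direction, and relative to them HAS3 was past both thresholds. HAS2 went from 2.44% ± 0.155 (SD, n = 3) to 0.624% ± 0.0114 (SD, n = 3) of the summed RPKM of the pair.

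Among the carriers of HS at the cell surface, the RNA of the glypicans changed in composition. GPC1 (Entrez identifier 2817, chromosome 2 from 240435663 to 240468076), a glypican held by a lipid anchor, had 1139, 1130 and 1178 reads in controls and 688, 672 and 766 reads with GCNT1 overexpression. The groups did not overlap and GPC1 fell 1.73-fold, from 93.6 ± 5.21 CPM (SD, n = 3) to 54.2 ± 5.26 CPM (SD, n = 3) (log2 fold change -0.79 ± 0.07 (SE), edgeR's Benjamini-Hochberg adjusted p = 1.05e-06). The median over its 50 nearest analysed genes was -0.60 on the log2 scale, and GPC1 differed from that median by -0.19, below the fold threshold. GPC4 (Entrez identifier 2239, chromosome X from 133300103 to 133415489) had 186, 169 and 140 reads in controls and 386, 436 and 431 reads with GCNT1 overexpression. All GCNT1 overexpressing libraries were above all controls, a 2.37-fold rise from 13.4 ± 1.48 CPM (SD, n = 3) to 31.9 ± 1.41 CPM (SD, n = 3) (log2 fold change 1.25 ± 0.09 (SE), edgeR's Benjamini-Hochberg adjusted p = 9.72e-08), while its 50 nearest genes had a median of 0.17. GPC6 did not pass the test (log2 fold change 0.04, standard error 0.08). In the summed RPKM of these 3 glypicans, which leaves out the weak GPC2, GPC1 made up 79.6, 81.1 and 83.3% in the control libraries and 62.6, 57.5 and 60.8% in the GCNT1 overexpressing libraries, and GPC4 9.75, 9.09 and 7.42% in the control libraries and 26.3, 28.0 and 25.6% in the GCNT1 overexpressing libraries. The sum was 30.9 ± 1.09 RPKM (SD, n = 3) in controls and 24.2 ± 1.34 RPKM (SD, n = 3) with GCNT1 overexpression, so GPC1 was the largest part of a smaller sum. With length over all exons in place of the canonical transcript GPC1 went from 71.3% to 46.4% and GPC4 from 13.4% to 36.0%.

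Syndecans span the membrane, and 1 of the 4 fell past both thresholds while another rose. SDC3 (Entrez identifier 9672, chromosome 1 from 30869466 to 30909735) had 985, 1032 and 970 reads in controls and 568, 642 and 709 reads with GCNT1 overexpression. The groups were apart and SDC3 fell 1.66-fold, from 81.1 ± 2.46 CPM (SD, n = 3) to 48.7 ± 1.79 CPM (SD, n = 3) (log2 fold change -0.74 ± 0.06 (SE), edgeR's Benjamini-Hochberg adjusted p = 2.37e-07). SDC2 (Entrez identifier 6383, chromosome 8 from 96493813 to 96611790) had 54, 45 and 48 reads in controls and 105, 105 and 111 reads with GCNT1 overexpression. It was the weakest syndecan in every library, and it rose 2.04-fold without overlap, from 3.99 ± 0.344 CPM (SD, n = 3) to 8.19 ± 0.769 CPM (SD, n = 3) (log2 fold change 1.03 ± 0.14 (SE), edgeR's Benjamini-Hochberg adjusted p = 3.06e-05). SDC1, the most abundant, had 271, 286 and 294 CPM in the control libraries and 253, 219.6 and 226 CPM in the GCNT1 overexpressing libraries (log2 fold change -0.28, adjusted p = 0.000948 from edgeR after Benjamini-Hochberg adjustment). Its 50 nearest genes had a median of -0.50, so relative to them SDC1 was higher by 0.21. SDC4 did not pass the test (log2 fold change -0.10, standard error 0.05), although its libraries did not overlap. By summed RPKM SDC1 held 56.6% ± 0.752 (SD, n = 3) to 54.9% ± 1.45 (SD, n = 3), SDC4 32.9% ± 0.723 (SD, n = 3) to 36.3% ± 1.33 (SD, n = 3), SDC3 9.76% ± 0.170 (SD, n = 3) to 6.94% ± 0.351 (SD, n = 3) and SDC2 0.763% ± 0.0788 (SD, n = 3) to 1.85% ± 0.0789 (SD, n = 3). The order SDC1, SDC4, SDC3, SDC2 was the same in all 6 libraries.

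**Figure D3:**
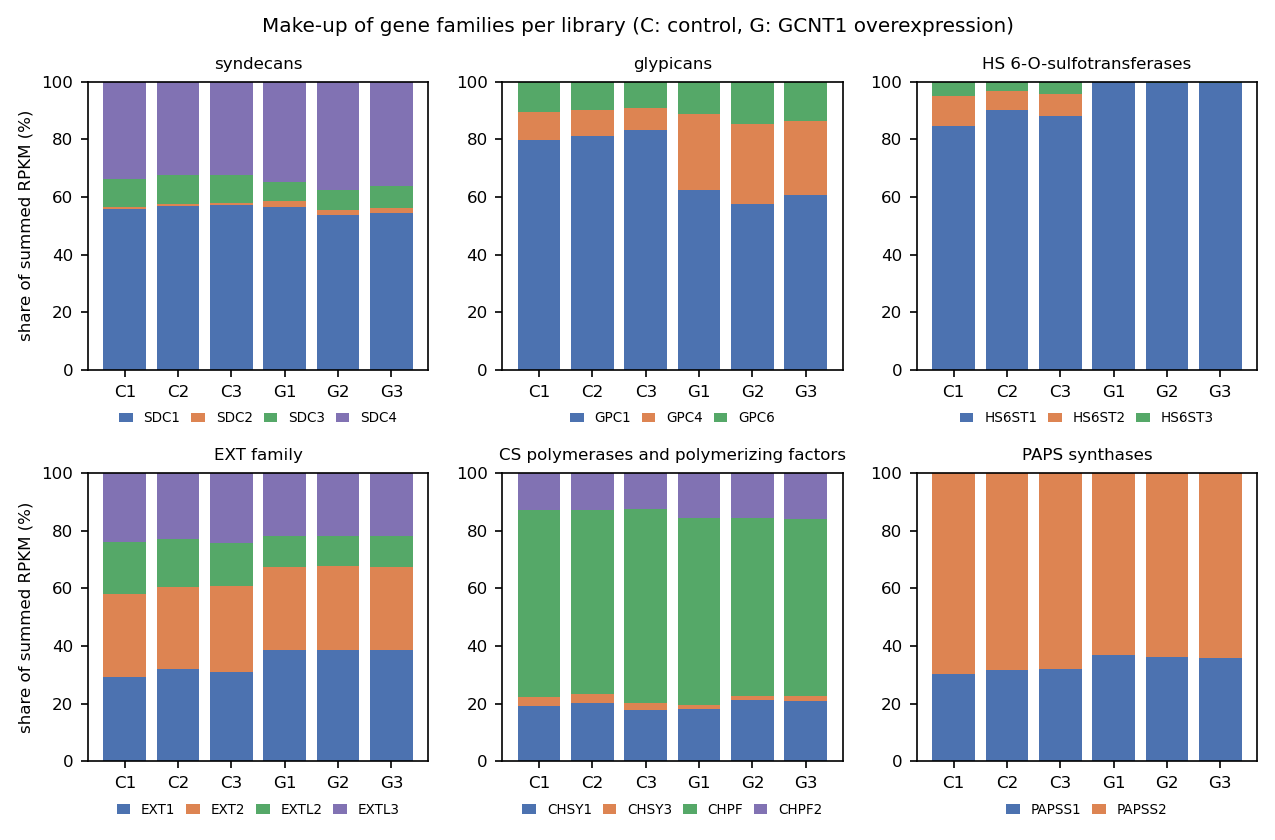
Share of each gene in the summed RPKM of the genes of its panel, in percent, for each of the 3 control (C) and 3 GCNT1 overexpressing (G) libraries. GPC4 went from 8.75% to 26.6% of GPC1, GPC4 and GPC6 together, HS6ST1 from 87.7% to 99.6% of the 6-O-sulfotransferases, and the make-up of the syndecans moved by a few percentage points.

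Of the 4 genes of precursor synthesis, both PAPS synthases fell and the 2 genes of sugar nucleotides did not pass the test. PAPSS2 (Entrez identifier 9060, chromosome 10 from 87659878 to 87747705) makes PAPS, the sulfate donor of every sulfotransferase above, and had 2669, 2526 and 2268 reads in controls and 1311, 1666 and 1669 reads with GCNT1 overexpression. It fell 1.72-fold without overlap, from 202 ± 10.1 CPM (SD, n = 3) to 118 ± 4.04 CPM (SD, n = 3) (log2 fold change -0.78 ± 0.05 (SE), edgeR's Benjamini-Hochberg adjusted p = 6.03e-08). Its homologue PAPSS1 had 63.2, 64.3 and 61.2 CPM in the control libraries and 44.9, 46.9 and 45.2 CPM in the GCNT1 overexpressing libraries and fell by less than the fold threshold (log2 fold change -0.46). Summed, the 2 PAPS synthases were between 76.2 and 82.5 RPKM in controls and between 48.5 and 51.4 RPKM with GCNT1 overexpression. UGDH and UXS1, which make the UDP-glucuronic acid and UDP-xylose of the chains, overlapped between groups (log2 fold changes 0.01 ± 0.08 and -0.02 ± 0.05, SE). The sulfate transporter SLC26A2, not one of the 45, also fell, from 149 ± 18.4 CPM (SD, n = 3) to 82.6 ± 5.69 CPM (SD, n = 3) (log2 fold change -0.85 ± 0.08 (SE), edgeR's Benjamini-Hochberg adjusted p = 1.71e-06).

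**Figure D4:**
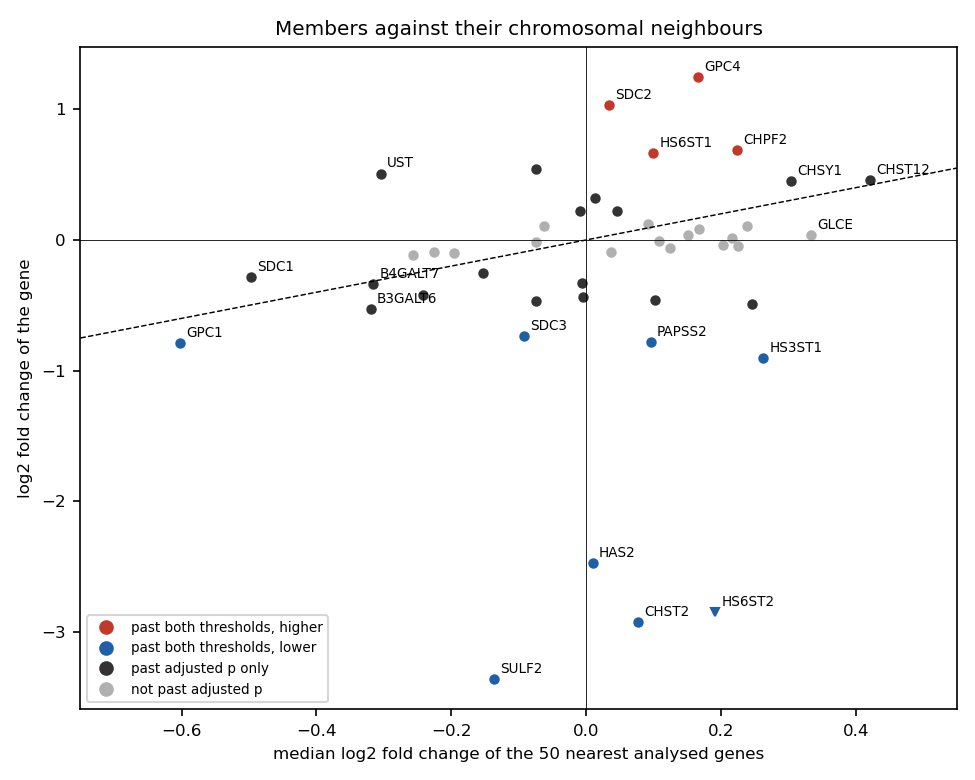
Log2 fold change of each of the 45 genes against the median of its 50 nearest analysed genes, with a dashed line where both are equal. GPC1 and SDC1 have the lowest medians, -0.60 and -0.50, and SULF2, CHST2, HAS2, HS6ST2 (an arrow at its bound), HS3ST1, GPC4 and SDC2 lie farthest from the dashed line.

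Other genes of the pathway came from lists of 112 symbols, of which 59 had a row, and 21 of these were called, 7 higher and 14 lower (35.6%, against 19.3% of all genes). Among 16 further core proteins 2 were higher and 5 lower. HSPG2, which encodes the basement membrane HS proteoglycan perlecan, had 5531, 4854 and 4606 reads in controls and 479, 585 and 685 reads with GCNT1 overexpression. The groups were far apart and HSPG2 fell from 406 ± 28.7 CPM (SD, n = 3) to 44.2 ± 3.84 CPM (SD, n = 3) (log2 fold change -3.20 ± 0.07 (SE), edgeR's Benjamini-Hochberg adjusted p = 1.30e-12). SPOCK1 (testican-1) had 245, 235 and 226 reads in controls and 2, 2 and 2 reads with GCNT1 overexpression, a ratio of 126 with a counting interval of 57.5 to 344 at 95% (exact, counting error only). The log2 fold change was -2.34 for CSPG5, -1.36 for the small proteoglycan biglycan (BGN) and -1.21 for ESM1 (endocan), whose 50 nearest genes had a median of -0.50. SRGN, the intracellular proteoglycan serglycin, rose from 145 ± 5.14 CPM (SD, n = 3) to 278 ± 20.2 CPM (SD, n = 3) (log2 fold change 0.94 ± 0.06 (SE), edgeR's Benjamini-Hochberg adjusted p = 2.04e-08), and VCAN (versican) went from 4 counts in each control to 30, 50 and 48 (log2 fold change 3.28). Of 13 other enzymes and transporters, NDST3 was higher (0.79) and HS3ST5 (-2.40), HS6ST3 and SLC26A2 were lower. NDST3 had 8 to 25 counts, and its call was lost with DESeq2 (adjusted p = 0.119 after Benjamini-Hochberg adjustment) and, in edgeR, without control replicate 1 (0.0508), control replicate 3 (0.0936) or GCNT1 overexpression replicate 3 (0.0695). SPOCK1, CEMIP, HS6ST3, PTN and BGN were under 1 CPM in each GCNT1 overexpressing library and VCAN in each control, so they passed the filter of the table through the other group. NDST3 was over 1 CPM in 1 control and in all 3 GCNT1 overexpressing libraries, so it passed through the latter.

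The list of glycosaminoglycan degradation had 20 genes with a row and also holds the sulfatase modifying factors SUMF1 and SUMF2. Of the 20, 3 were called higher and 2 lower (25%, against 19.3% of all genes). A further 10 passed the adjusted p value alone, which makes 75% against 57.6% of all genes. Heparanase (HPSE), which cuts HS chains, had 8.26, 11.2 and 7.78 CPM in the control libraries and 16.4, 16.9 and 16.4 CPM in the GCNT1 overexpressing libraries (log2 fold change 0.87 ± 0.12 (SE), edgeR's Benjamini-Hochberg adjusted p = 4.36e-05). The sulfatase ARSG rose (1.36), as did the lysosomal galactosidase GLB1 (0.61, and 0.58 and no longer called without GCNT1 overexpression replicate 1), while the sulfatase ARSK fell (-0.81). CEMIP, which takes part in the breakdown of hyaluronan, had 423, 382 and 369 reads in controls and 1, 0 and 0 reads with GCNT1 overexpression, a ratio of 1256 with an exact counting interval of 225 to 49633 at 95%. HMMR, a hyaluronan-binding protein that also acts on the mitotic spindle, fell (-0.89). Of 9 ligands, receptors and partners of HS, the growth factor midkine (MDK) rose from 153 ± 18.9 CPM (SD, n = 3) to 332 ± 33.3 CPM (SD, n = 3) (log2 fold change 1.12 ± 0.08 (SE), edgeR's Benjamini-Hochberg adjusted p = 1.65e-07). Its homologue pleiotrophin (PTN) had 61, 48 and 66 reads in controls and 7, 10 and 8 reads with GCNT1 overexpression (log2 fold change -2.89 ± 0.25 (SE), edgeR's Benjamini-Hochberg adjusted p = 5.68e-07). The FGF receptors FGFR1 (-0.77) and FGFR4 (-0.63) were also lower, although FGFR4 was not called with library size in place of TMM (-0.57), without control replicate 3 (-0.57), without GCNT1 overexpression replicate 3 (-0.56) or relative to its 50 nearest genes (-0.26), whose median was -0.37.

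**Figure D5:**
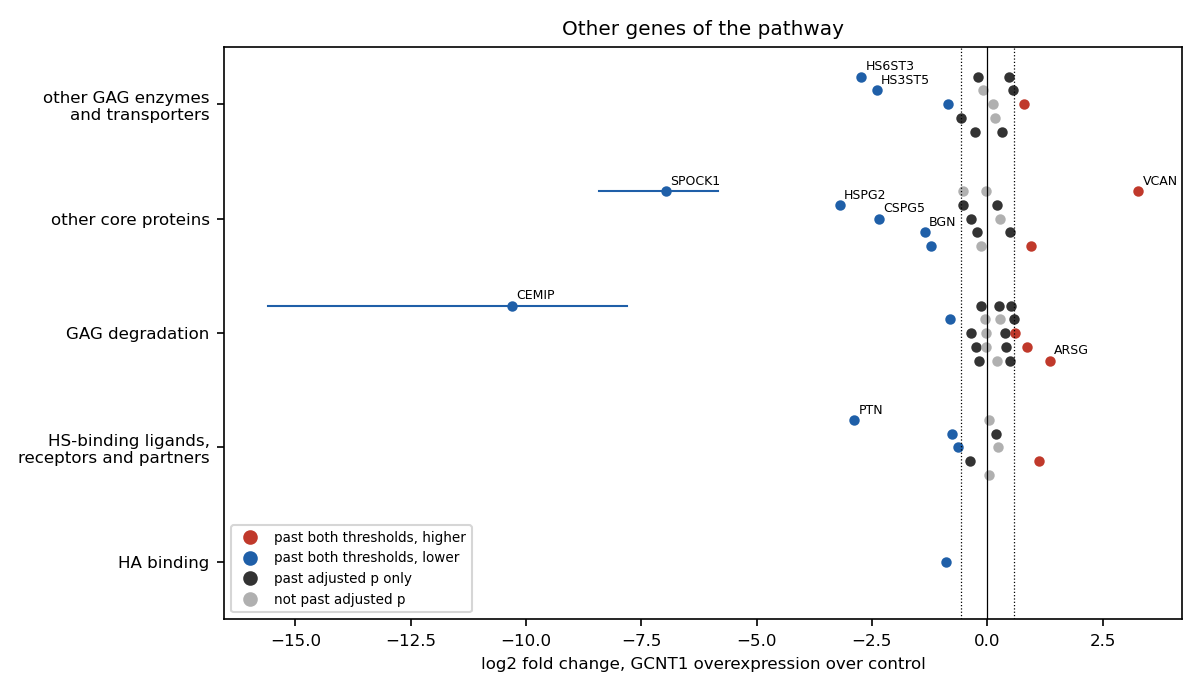
Log2 fold change of the 59 other genes of the pathway by list, GCNT1 overexpression over control, with dotted lines at the threshold of 0.58. SPOCK1 and CEMIP are placed at the ratio of their summed counts with a bar for its counting interval, and the called genes lie on both sides of 0 in 4 of the 5 lists, HMMR being the 1 gene of the list of hyaluronan binding.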

How the data were processed

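Per the labels and the study's methods, libraries were stranded mRNA libraries read from 1 end. Cutadapt was used for trimming, HISAT2 for alignment to hg38 and featureCounts for counting, all in Galaxy 22.01. What the authors deposited are raw counts of reads per Entrez gene, 1 column per library. The annotation, the strand setting and the low-count filter are not given in the sources used here. Counts were analysed with edgeR 4.0.16 in R 4.3.3 (filterByExpr, which kept all 12703 genes, TMM, quasi-likelihood fit of 2 groups). limma-voom (limma 3.58.1) and DESeq2 1.42.0 were alternatives, all tested on simulated data. The standard error is the absolute log2 fold change divided by the root of the F statistic. Replicates are those of the labels, which say biological. Names and positions came from RefSeq (12661 genes matched), transcript lengths and overlaps from GENCODE 44, and neighbours from 12643 placed genes. The genes, lists and role groups were chosen with earlier results of these data known. Every gene with a row was to be named, with library values for those past the adjusted p value. Part of the marker list is not reported here.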

Additional observations from a re-analysis of the deposited data

How the results depend on the processing

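The counts of called genes held within 1.5 times under limma-voom, DESeq2, RLE factors, library size alone, no filter, at least 10 counts in every library, each library left out and values relative to the 50 nearest genes, which keep the same adjusted p. Called members ranged from 4 to 5 higher and from 6 to 9 lower. The filter at 10 counts removed HS3ST1 and HS6ST2 through their own low counts. HS3ST1 also lost its call without control replicate 3, GCNT1 overexpression replicate 2 or GCNT1 overexpression replicate 3 (log2 fold changes -0.70, -0.89 and -0.73). Relative to the 50 nearest genes GPC1, HS6ST1 and CHPF2 dropped below the fold threshold (-0.19, 0.56 and 0.46) and EXT1, UST and HAS3 passed it (0.62, 0.81 and -0.73). B3GALT6 passed it without GCNT1 overexpression replicate 1 (-0.59) and EXT1 without control replicate 2 (0.58). The sign turned for SDC1 (0.21) and for uncalled NDST1 (0.14), GLCE (-0.30), CHST3 (-0.13), CHST11 (-0.0828), DSE (0.14), GPC6 (-0.11), SDC4 (0.10), UGDH (-0.21) and UXS1 (0.0561) relative to neighbours, and for NDST2 (0.0150) and UXS1 (0.0400) with library size. Uncalled B3GAT3, GLCE, CSGALNACT1, CSGALNACT2, DSE and UGDH also changed sign with library size or a library left out, at values from -0.0530 (UGDH) to 0.0796 (CSGALNACT1). The cause was not tested. Among the other pathway genes HYAL3, SLC35D2, GPC2, UGP2 and SPOCK3 passed both thresholds under 1 or more alternatives. With the replicate number as a block 4 members were called higher and 8 lower, the same 12, and 2423 of all genes against 2457. Same-numbered libraries did not deviate together (correlations -0.273, -0.0024 and -0.109). With length over all exons, chosen after seeing the data, the share differences kept their direction in 26 of 27 family members, all but EXT2, and shares moved by up to 1.54 times (GPC4 and GPC6 in controls).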
